A study of Mus musculus with 36 samples.

Results

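WT tumors taken at the end of a chemical and inflammatory model of colon cancer were compared with untreated WT colon. The comparison was chosen by label and set 10 of the 36 arrays of the series against each other. These were all arrays labelled as WT colon tumor, 6 in number, and all labelled as untreated WT colon, 4 in number. The tumors came from mice that received azoxymethane, a DNA-alkylating colon carcinogen. They then drank 3% dextran sulfate sodium, an irritant of the colon epithelium, for 5 days and plain water for 14 days, and this cycle was run 3 times. They were labelled day 63 and terminal disease. The untreated mice received neither agent and were labelled day 0 and healthy. The labels give all mice the same age, 6 to 8 weeks, which cannot be the age at sampling at both day 0 and day 63. A difference in age between the groups cannot be told apart from the tumor difference. The strain is not named in the labels. RNA came from minced colon tissue, so each value is an average over epithelium, immune cells, muscle and nerves. In such bulk samples, fewer cells of a type and less RNA per cell cannot be told apart. Beside these, WT arrays of treated colon at day 7 and at day 15, 4 at each, were used where named. So were tumors and untreated colon of mice lacking Il17rc (IL-17RC KO, 6 and 4 arrays). The labels do not say whether each array is a separate mouse, so p-values measure the spread between arrays. That spread was estimated jointly from all 36 arrays in 8 groups, which include other treated and IL-17RC KO arrays.

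Expression was measured on Affymetrix mouse arrays as intensity, with 1 probe set for each of 17097 genes. A gene passed the test where limma's adjusted p was under 0.05. Of all genes, 2144 (12.5%) were higher and 1734 (10.1%) were lower in WT tumors than in untreated WT colon, and the median log2 difference over all genes was 0.02. All 6 tumor arrays lay above all 4 untreated arrays for 8% of genes and below them for 6.61%. Where 3 intensities are given for tumors they are the lowest, the median and the highest of the 6 arrays. The 4 intensities of untreated colon are the single arrays in replicate order, and ± is the standard error of the log2 difference. Intensities of different genes are not comparable with each other.

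The labelled tissue was checked against its markers. Epcam, a surface protein of epithelial cells, was at 6565 to 7097 in WT tumors and at 5306 to 7039 in untreated WT colon. Not all epithelial markers were alike between groups. Car1 was at 847 to 3984 in WT tumors and at 3997 to 6395 in untreated WT colon (log2 difference -1.43, adjusted p = 0.00185). Krt20 and Vil1 did not pass (adjusted p = 0.146 and 0.513), with Krt20 at 705 on tumor replicate 3 and at 2455 to 3506 in untreated WT colon. Il17rc was at 7 to 15 on the 10 IL-17RC KO arrays used here. Some arrays stood apart. Krt5, a keratin of squamous epithelium, was at 16 to 46 in WT tumors but at 6043, 16, 18 and 2199 in untreated WT colon, so untreated replicates 1 and 4 carried squamous transcripts. Cela3b, a pancreatic elastase, was at 9531 on tumor replicate 6 and 3694 on tumor replicate 2, and at 8 to 10 in untreated WT colon. The summed intensity of 9 adipocyte genes was 671 to 3871 on the tumor arrays, against 966, 9596, 1336 and 2017 in untreated WT colon, so untreated replicate 2 stood apart in these. Adipoq, the fat cell hormone adiponectin, was at 20 to 221 in WT tumors, against 19, 561, 33 and 65 in untreated WT colon. Tumor replicate 6 also had the lowest level of many tumor-high genes and the highest level of many muscle and colonocyte genes. The part of these arrays in the results was not tested beyond the values without them that are given beside the results.

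The colon epithelium renews itself from stem cells at the crypt base, where Wnt ligands keep β-catenin stable so that it can bind TCF/LEF factors on target genes. Cells that leave the base lose this signal, stop dividing and take up the work of the mature surface: absorbing salt, water and short-chain fatty acids, secreting mucus and detoxifying compounds. Mutations that stabilise β-catenin are common in azoxymethane-induced tumors, and inflammation after dextran sulfate sodium brings in myeloid and lymphoid cells.

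Promoters of Wnt targets are shown first because this group had the gene with the largest rise. They are RefSeq sequences of GRCm38.p6, from 250 bases before to 50 bases after an annotated start, written 5′ to 3′ on the gene's strand, with matches to the TCF/LEF core CTTTGAT or its reverse complement ATCAAAG in capitals. Mmp7 (chr9:7691840-7692139, plus strand) and Sp5 (chr2:70474673-70474972, plus strand) each had 1 match.
Mmp7: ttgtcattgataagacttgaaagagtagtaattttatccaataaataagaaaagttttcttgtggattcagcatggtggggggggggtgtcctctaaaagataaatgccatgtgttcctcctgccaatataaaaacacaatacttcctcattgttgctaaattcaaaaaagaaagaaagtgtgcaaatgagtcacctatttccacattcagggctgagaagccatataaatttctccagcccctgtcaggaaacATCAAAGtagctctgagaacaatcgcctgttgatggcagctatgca
Sp5: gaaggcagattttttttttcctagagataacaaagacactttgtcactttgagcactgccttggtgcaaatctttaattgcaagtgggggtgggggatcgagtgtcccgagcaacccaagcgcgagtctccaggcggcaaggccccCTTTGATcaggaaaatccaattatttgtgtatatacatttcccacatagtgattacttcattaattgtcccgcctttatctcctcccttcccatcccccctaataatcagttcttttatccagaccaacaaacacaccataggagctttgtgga
Of the 22 measured Wnt target genes, 14 had a promoter in the table and 3 of them held the core (21.4%): Mmp7, Sp5 and Tnfrsf19. The core stood in a promoter of 4.29% of all 27025 genes and in 3.73% of all 32851 promoters of the same length. A match is a description of the letters and not a binding site.

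Wnt/β-catenin target genes were mostly higher in WT tumors. Of 22 measured members, 18 rose and 1 fell, with a median log2 difference of 2.03 against 0.02 over all genes. Mmp7, a matrix metalloproteinase made by epithelial tumor cells, had intensities of 828, 3592.5 and 4590 in WT tumors, against 8, 8, 9 and 11 in untreated colon (log2 difference 8.16 ± 0.41, adjusted p = 2.96e-15). Its lowest tumor array lay far above every untreated array. Wif1, a secreted Wnt inhibitor that is itself a target, was at 58, 690.5 and 964 in WT tumors, against 10, 8, 8 and 8 in untreated colon (log2 difference 5.70 ± 0.43, adjusted p = 3.37e-11). Prox1, a homeobox factor, was at 30, 292 and 336 in WT tumors, against 10, 10, 9 and 12 in untreated colon (log2 difference 4.09 ± 0.37, adjusted p = 2.3e-09). Sp5, a zinc-finger factor that acts downstream of Wnt, was at 33, 174 and 205 in WT tumors, against 16, 14, 11 and 10 in untreated colon (log2 difference 3.29 ± 0.31, adjusted p = 3.26e-09). For each of these genes the groups did not overlap, and the lowest tumor array was replicate 6. Tnfrsf19, a TNF receptor family member named here for its promoter match and thus chosen after its values were seen, was at 29, 176 and 297 in WT tumors, against 23, 34, 31 and 45 in untreated colon (log2 difference 2.13 ± 0.40, adjusted p = 0.000188), with replicate 6 inside the untreated range. The member that fell was Nkd2, a Dishevelled-binding antagonist of Wnt signalling, at 11, 13 and 22 in WT tumors, against 48, 52, 35 and 49 in untreated colon (log2 difference -1.54 ± 0.28, adjusted p = 0.000118). Cd44, a hyaluronan receptor and Wnt target, was at 608, 673 and 713 in WT tumors, against 1004, 302, 189 and 370 in untreated colon. Cd44 did not pass (log2 difference 0.80 ± 0.51, adjusted p = 0.283), with untreated replicate 1 above every tumor array.

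**Figure D1:**
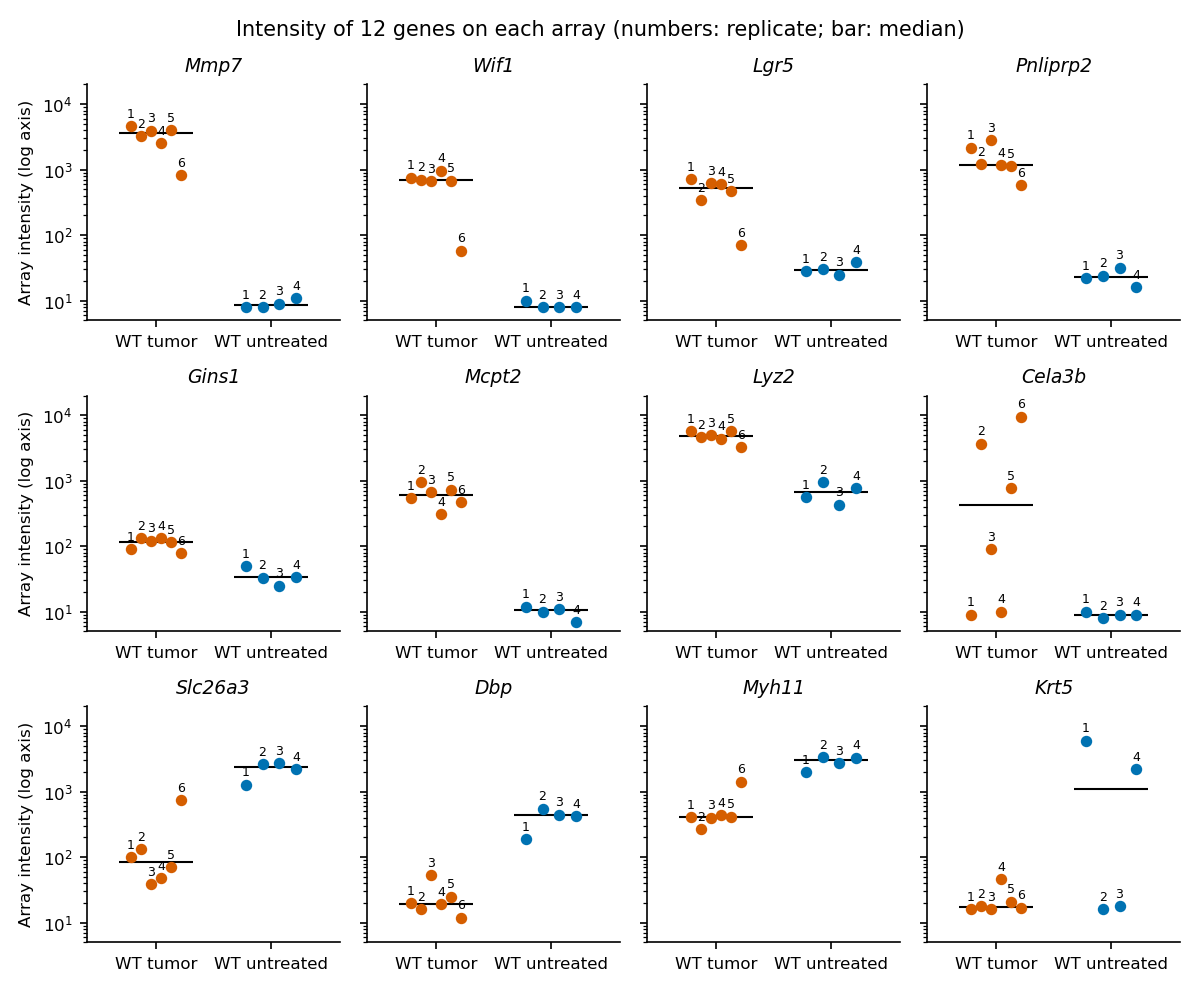
Intensity (log axis) of 12 genes on the 6 WT tumor arrays and the 4 untreated WT arrays; numbers beside the points are replicates and bars are medians. Tumor replicate 6 lies lowest for Mmp7 (828), Wif1 (58) and Lgr5 (71) and highest for Cela3b (9531), Slc26a3 (748) and Myh11 (1419), and Krt5 is high only on untreated replicates 1 (6043) and 4 (2199).

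Of 25 measured Wnt ligands, R-spondins and receptors, 4 rose and 4 fell (16% each), shares close to those of all genes. Their median difference was 0.11, and 0.05 without untreated replicate 4. Without tumor replicate 2 or untreated replicate 1, 2 of them fell. Dkk2, a secreted Wnt antagonist, was at 33, 138.5 and 202 in WT tumors, against 46, 13, 10 and 17 in untreated colon (log2 difference 2.59 ± 0.35, adjusted p = 2.59e-06). The ligand Wnt6 rose, at 9, 47 and 67 in WT tumors, against 10, 9, 11 and 11 in untreated colon (log2 difference 1.72 ± 0.29, adjusted p = 4.61e-05). So did the ligand Wnt10a, at 8, 49 and 113 in WT tumors, against 21, 8, 7 and 15 in untreated colon (log2 difference 1.74 ± 0.38, adjusted p = 0.00114). In all 3 genes tumor replicate 6 was the only tumor array inside or below the untreated range. The receptor Fzd5 fell, at 226, 261.5 and 480 in WT tumors, against 412, 681, 818 and 732 in untreated colon (log2 difference -1.15 ± 0.26, adjusted p = 0.00123). The ligand Wnt4 was at 12, 15 and 17 in WT tumors, against 582, 50, 15 and 117 in untreated colon (log2 difference -2.40 ± 0.68, adjusted p = 0.00932), with untreated replicate 1 far above the others, and without that array its log2 difference was -1.46 (adjusted p = 0.0944).

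Stem cell genes of the crypt base rose in part: 5 of 12 measured members were higher and none lower (median 0.55), with 4 higher and 1 lower without untreated replicate 1. Lgr5, the receptor that marks cycling crypt stem cells, was at 71, 534.5 and 724 in WT tumors, against 28, 30, 25 and 39 in untreated colon (log2 difference 3.65 ± 0.40, adjusted p = 7.3e-08). Smoc2, a matricellular protein of the same cells, was at 296, 844.5 and 1376 in WT tumors, against 182, 135, 136 and 199 in untreated colon (log2 difference 2.29 ± 0.36, adjusted p = 2.53e-05). Ascl2, the stem cell transcription factor, was at 57, 212.5 and 448 in WT tumors, against 57, 70, 58 and 37 in untreated colon (log2 difference 1.93 ± 0.39, adjusted p = 0.000442). Lgr5 and Smoc2 were higher on every tumor array than on any untreated array, while Ascl2 overlapped through replicate 6. Bmi1, a Polycomb subunit, differed less, at 198, 241 and 295 in WT tumors, against 102, 155, 127 and 166 in untreated colon (log2 difference 0.83 ± 0.22, adjusted p = 0.00553). Olfm4, a stem cell marker of the small intestine, was at 10, 11 and 14 in WT tumors, against 1907, 8, 9 and 9 in untreated colon. Olfm4 did not pass (log2 difference -1.53 ± 0.88, adjusted p = 0.223): it was high on untreated replicate 1 alone.

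Signals of the BMP family, which oppose Wnt along the crypt, showed 6 rises and 3 falls among 20 measured members (median 0.03), and 3 of each without untreated replicates 1 and 4. Bmp2, a ligand of the mature surface epithelium, fell, at 120, 164.5 and 280 in WT tumors, against 571, 720, 805 and 949 in untreated colon (log2 difference -2.11 ± 0.25, adjusted p = 2.51e-07), and so did Id4, an inhibitor of helix-loop-helix factors, at 68, 114.5 and 258 in WT tumors, against 465, 644, 333 and 518 in untreated colon (log2 difference -2.03 ± 0.32, adjusted p = 2.73e-05). The tumor and untreated arrays of both genes were apart. Bambi, a decoy receptor, was at 67, 155.5 and 263 in WT tumors, against 52, 74, 57 and 69 in untreated colon (log2 difference 1.28 ± 0.27, adjusted p = 0.000842). Fst, which binds activins, was at 42, 44.5 and 65 in WT tumors, against 24, 24, 25 and 16 in untreated colon (log2 difference 1.06 ± 0.24, adjusted p = 0.00179). Bmp4, a stromal ligand, was at 150, 236 and 314 in WT tumors, against 235, 428, 180 and 183 in untreated colon. Bmp4 did not pass (log2 difference -0.09 ± 0.41, adjusted p = 0.906).

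Genes of Paneth cells, secretory cells of the small-intestinal crypt that are normally absent from the distal colon, rose in 7 and fell in 1 of 11 measured members (median 1.28). Pnliprp2, a lipase-related protein, was at 579, 1184.5 and 2855 in WT tumors, against 22, 24, 32 and 16 in untreated colon (log2 difference 5.82 ± 0.33, adjusted p = 5.98e-14). Defa21, an α-defensin, was at 18, 1285.5 and 2771 in WT tumors, against 9, 9, 10 and 9 in untreated colon (log2 difference 6.08 ± 0.80, adjusted p = 1.63e-06). Itln1, a lectin that binds microbial sugars, was at 263, 2941 and 4359 in WT tumors, against 15, 10, 11 and 9 in untreated colon (log2 difference 7.24 ± 0.46, adjusted p = 4.69e-13). Tumor replicate 6 was at 18 for Defa21 and 263 for Itln1, the lowest of the tumors in both. Pnliprp1, another lipase-related protein, was at 737, 1065.5 and 2451 in WT tumors, against 17, 12, 15 and 11 in untreated colon (log2 difference 6.31 ± 0.49, adjusted p = 5.87e-11), where replicate 6 was instead the highest. The Paneth lysozyme Lyz1 was at 18, 22.5 and 33 in WT tumors, against 13, 12, 14 and 15 in untreated colon (log2 difference 0.81 ± 0.20, adjusted p = 0.00316). Mptx1, a pentraxin of intestinal epithelium, fell, at 37, 282.5 and 1007 in WT tumors, against 1638, 2763, 1814 and 2168 in untreated colon (log2 difference -3.06 ± 1.05, adjusted p = 0.0326), although the call was lost when any 1 of 5 arrays was left out, tumor replicates 1 and 6 and untreated replicates 2, 3 and 4, with an adjusted p of 0.0575 to 0.0785.

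Several lipase-related genes are also made by the exocrine pancreas, and pancreatic transcripts varied strongly among the tumors. Of 15 measured pancreatic genes 3 rose and none fell (median 2.69). Without tumor replicate 6 the median was 1.72, and without tumor replicates 2 and 6 it was 0.51, with 1 rise and 1 fall. Without untreated replicate 1 or 2, 1 gene rose. Their summed intensity was 2366, 15706, 3095, 1352, 3029 and 42574 on tumor replicates 1 to 6, against 2039, 2900, 3158 and 3180 in untreated WT colon. By this sum, only replicates 2 and 6 were above the untreated range. Most of the untreated sum came from the elastase Cela1, which was below the untreated range on every tumor array except replicate 6. The sum can therefore hide higher levels of other members on the other tumors. Cpa1, a carboxypeptidase, was at 18 on tumor replicate 3 and 43 on replicate 5. It was at 8 and 9 on tumor replicates 1 and 4, and at 8 to 11 in untreated colon. Rnase1, a secreted ribonuclease, was at 332, 804.5 and 2449 in WT tumors, against 110, 22, 28 and 336 in untreated colon (log2 difference 3.67 ± 0.82, adjusted p = 0.00138). Clps, colipase, was at 279, 1053 and 2606 in WT tumors, against 152, 173, 235 and 248 in untreated colon (log2 difference 2.23 ± 0.71, adjusted p = 0.0211). Both were also above the untreated range on tumor replicates 1, 3 and 5, but the adjusted p of Clps was 0.105 without tumor replicates 2 and 6, 0.0503 without untreated replicate 1 and 0.0527 without untreated replicate 2. Cela3b was at 9, 430 and 9531 in WT tumors, against 10, 8, 9 and 9 in untreated colon (log2 difference 4.66 ± 1.72, adjusted p = 0.0477), and without those replicates its log2 difference was 2.39 (adjusted p = 0.336). Its call was also lost when any 1 of 7 arrays was left out, with an adjusted p of up to 0.119. Prss2, a trypsinogen, was at 14, 21 and 2218 in WT tumors, against 11, 10, 15 and 9 in untreated colon. Prss2 did not pass (log2 difference 2.69 ± 1.33, adjusted p = 0.15), and Ptf1a, the acinar transcription factor, stayed between 8 and 11 on all 10 arrays. Sycn, a zymogen granule protein also known from the pancreas, fell, at 106, 174.5 and 3069 in WT tumors, against 3347, 5423, 6488 and 4788 in untreated colon (log2 difference -4.02 ± 0.90, adjusted p = 0.00128). The elastase Cela1 was at 444, 784.5 and 4263 in WT tumors, against 1656, 2573, 2773 and 2479 in untreated colon (log2 difference -1.27 ± 0.54, adjusted p = 0.0885), and its difference was -1.92 without tumor replicates 2 and 6 (adjusted p = 0.00706). The part of pancreatic tissue in these values was not tested beyond the values without replicates 2 and 6.

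**Figure D2:**
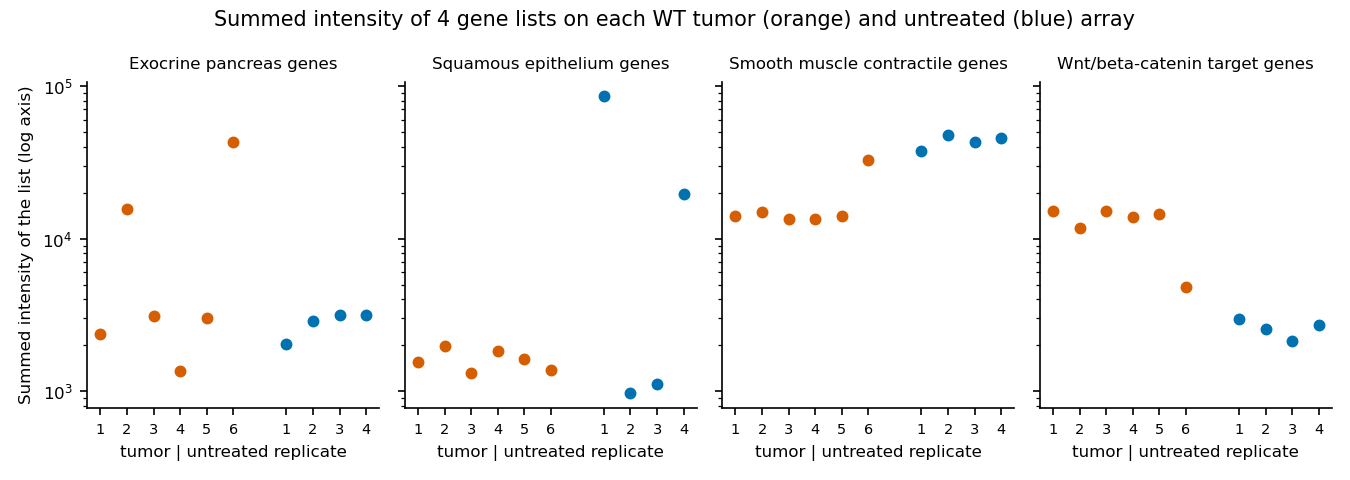
Summed intensity (log axis) of 4 gene lists on each array, WT tumor replicates left and untreated WT replicates right in each panel. Pancreatic genes are high on tumor replicates 2 (15706) and 6 (42574), squamous genes on untreated replicates 1 (85175) and 4 (19677), and tumor replicate 6 is nearest to untreated colon for smooth muscle genes (32834) and Wnt targets (4823).

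Of 9 Reg and intelectin lectins, 3 rose and none fell (median 2.23). Itln1, already counted among the Paneth cell genes, is 1 of these 3. Their median was 1.41 without tumor replicate 6 and 0.84 without tumor replicates 2 and 6. Reg3b was at 628, 1406 and 3304 in WT tumors, against 17, 7, 11 and 162 in untreated colon (log2 difference 5.89 ± 0.91, adjusted p = 1.75e-05). Reg3g, which kills Gram-positive bacteria, was at 136, 541.5 and 1001 in WT tumors, against 14, 10, 12 and 12 in untreated colon (log2 difference 4.98 ± 0.51, adjusted p = 1.84e-08). Both separated the groups. Of 21 antimicrobial and acute-phase genes, 9 rose and none fell (median 0.83). Without tumor replicate 6 the count was the same and the median was 0.39. Saa3, an acute-phase apolipoprotein, was at 314, 1544.5 and 2548 in WT tumors, against 11, 12, 14 and 14 in untreated colon (log2 difference 6.53 ± 0.81, adjusted p = 7e-07). Serpina3n, a protease inhibitor, was at 260, 685.5 and 889 in WT tumors, against 11, 28, 30 and 13 in untreated colon (log2 difference 4.85 ± 0.68, adjusted p = 4.8e-06). Neither differed past the threshold between WT tumors and WT day 15 colon (log2 differences 0.26 and -0.26). Goblet cell genes had 3 rises and 2 falls among 19 (15.8% and 10.5%, median 0.04), shares close to those of all genes. Retnlb, a goblet cell protein induced by microbes and type 2 cytokines, was at 209, 1335 and 2753 in WT tumors, against 18, 10, 8 and 12 in untreated colon (log2 difference 6.12 ± 0.68, adjusted p = 9.6e-08), and its WT day 15 arrays were at 905, 2813, 2825 and 704. Spink4, a trypsin-inhibitor-like goblet cell product, was at 5522, 6453 and 7941 in WT tumors, against 2722, 3793, 3325 and 3370 in untreated colon (log2 difference 1.02 ± 0.23, adjusted p = 0.00121). The chemokine Ccl6 was at 2303, 3625.5 and 4837 in WT tumors, against 1243, 2619, 1772 and 1525 in untreated colon (log2 difference 1.05 ± 0.26, adjusted p = 0.00351). Spink4 did not overlap between groups, while Ccl6 did, and without untreated replicates 1 and 4 the log2 difference of Ccl6 was 0.75 (adjusted p = 0.118). The membrane mucin Muc3 fell, at 1761, 1870.5 and 5151 in WT tumors, against 6377, 8026, 7979 and 7051 in untreated colon (log2 difference -1.69 ± 0.31, adjusted p = 0.000176). Clca1, a secreted goblet cell metalloprotease, was at 1489, 3166 and 6311 in WT tumors, against 4848, 6558, 5159 and 5082 in untreated colon. Clca1 did not pass (log2 difference -0.86 ± 0.44, adjusted p = 0.167). Of 10 tuft cell genes 3 rose (median 0.11, and 0.07 with 1 rise without untreated replicate 3), Fyb (log2 difference 1.20 ± 0.34, adjusted p = 0.00895), Avil (log2 difference 1.88 ± 0.55, adjusted p = 0.0116) and Alox5ap (log2 difference 1.97 ± 0.65, adjusted p = 0.0266). Fyb had an adjusted p of 0.112 without untreated replicates 1 and 4 and of 0.061 without tumor replicates 2 and 6. Avil, which encodes advillin, was at 486 on untreated replicate 1 and at 17 to 23 on the other untreated arrays, and the adjusted p of Avil was 0.0617, 0.0764 and 0.0762 without untreated replicate 2, 3 or 4. Without untreated replicate 1 its log2 difference was 3.03. The adjusted p of Alox5ap was 0.115 without untreated replicate 3, 0.0524 without tumor replicate 1 and 0.0549 without tumor replicate 2.

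DNA replication genes rose in WT tumors, while mitosis genes mostly did not pass. Of 25 measured replication genes 19 rose and none fell (median 0.74). Gins1, a subunit of the replicative helicase complex, was at 78, 117.5 and 133 in WT tumors, against 50, 33, 25 and 34 in untreated colon (log2 difference 1.63 ± 0.25, adjusted p = 1.72e-05). Cdc6, which loads the helicase, was at 30, 45 and 59 in WT tumors, against 18, 25, 21 and 18 in untreated colon (log2 difference 1.10 ± 0.19, adjusted p = 8.79e-05), and the helicase subunits Mcm6 and Mcm4 had log2 differences of 1.09 and 1.17 (adjusted p = 0.000114 and 0.000179). None of these 4 genes overlapped between groups. The polymerase subunit Pola1 was at 72, 87.5 and 136 in WT tumors, against 93, 58, 53 and 86 in untreated colon. Pola1 did not pass (log2 difference 0.37 ± 0.26, adjusted p = 0.325). Of 23 mitosis genes, 2 rose and none fell (median 0.34, and 0.21 without untreated replicate 2): Cdk1, the mitotic kinase (log2 difference 0.65 ± 0.24, adjusted p = 0.0441), and Tpx2, a spindle factor (log2 difference 0.70 ± 0.25, adjusted p = 0.0446). Both calls were lost without several single arrays, with an adjusted p of up to 0.157 for Cdk1, without untreated replicate 2, and up to 0.155 for Tpx2, without untreated replicate 4. Mki67, the proliferation antigen, was at 483, 595.5 and 972 in WT tumors, against 809, 591, 791 and 618 in untreated colon (log2 difference -0.12 ± 0.25, adjusted p = 0.792). Top2a, topoisomerase IIα, was at 541, 699.5 and 1144 in WT tumors, against 600, 325, 510 and 388 in untreated colon (log2 difference 0.70 ± 0.26, adjusted p = 0.0506). Leaving out 1 array gave 0 to 4 rises in the mitosis list. The difference between the lists was not tested. Of 23 genes of Myc and ribosome biogenesis, 11 rose and none fell (median 0.50). Myc itself was at 231, 346.5 and 400 in WT tumors, against 183, 133, 80 and 234 in untreated colon (log2 difference 1.10 ± 0.23, adjusted p = 0.000795). Nolc1, Ddx21 and Bop1, nucleolar factors of ribosome assembly, had log2 differences of 0.98, 0.72 and 0.73 (adjusted p = 0.000179, 0.000466 and 0.000513). Ncl, nucleolin, did not pass, on a probe set that stayed between 8 and 14.

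Set against treated WT colon at day 15, proliferation genes differed in more members. In that comparison 12.2% of all genes were higher and 7.76% lower in tumors, and it shares the tumor arrays with the first. Of the replication genes 24 of 25 were higher in tumors than at day 15 (median 1.23), as were 23 of 23 mitosis genes (median 1.29) and 18 of 22 Wnt targets (median 3.06). Mki67 was at 483 to 972 in WT tumors and at 174, 424, 491 and 466 at day 15 (log2 difference 0.83, adjusted p = 0.015). Without the day 15 array at 174, replicate 1, it did not pass (log2 difference 0.48, adjusted p = 0.173). Relative to the untreated mean, the per-array median of the mitosis list lay between -2.06 and -1.41 at day 7 and between -1.96 and -0.41 at day 15. Of 23 macrophage genes 1 was higher and 1 lower in tumors than at day 15 (median 0.06).

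**Figure D3:**
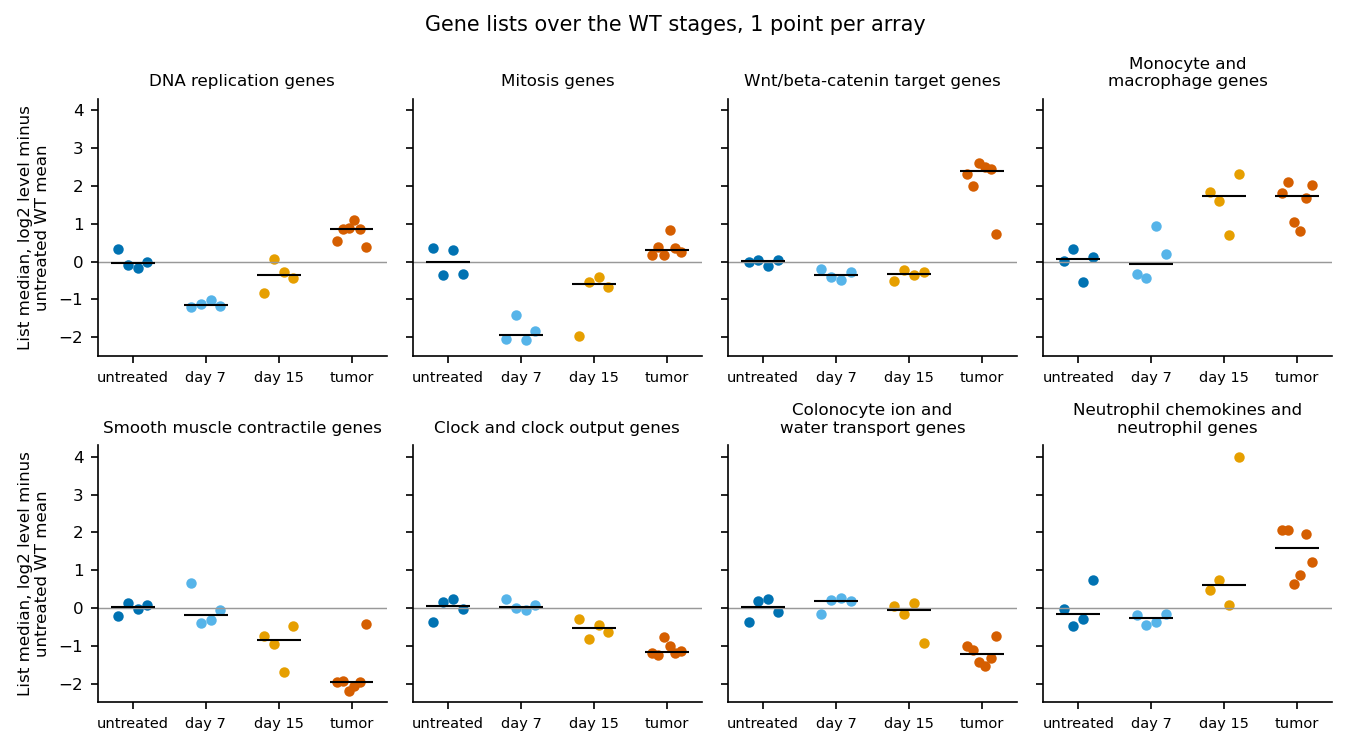
Median over the members of 8 gene lists of the log2 level minus the untreated WT mean, 1 point per WT array, over untreated, day 7, day 15 and tumor; bars are group medians. The mitosis list has its group median at -1.94 at day 7 and 0.30 in tumors, the Wnt target list is at -0.32 at day 15 and 2.39 in tumors, and macrophage genes are at 1.72 at day 15 and 1.75 in tumors.

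Many transport genes of the mature colonocyte fell in WT tumors. Of 22 genes of ion and water transport, 13 fell and 2 rose (median -1.24). Without untreated replicate 1 there was 1 rise. Slc26a3, the chloride-bicarbonate exchanger of the colon surface, was at 39, 85 and 748 in WT tumors, against 1276, 2629, 2739 and 2209 in untreated colon (log2 difference -4.34 ± 0.67, adjusted p = 1.81e-05). Car4, a membrane carbonic anhydrase, was at 62, 303.5 and 1636 in WT tumors, against 2554, 3891, 4098 and 3055 in untreated colon (log2 difference -3.67 ± 0.68, adjusted p = 0.000174). Slc5a8, a transporter of short-chain fatty acids, was at 62, 87.5 and 567 in WT tumors, against 626, 1316, 1234 and 1010 in untreated colon (log2 difference -3.15 ± 0.61, adjusted p = 0.000305). In all 3, tumor replicate 6 was the tumor array nearest to untreated colon. Slc16a1, the monocarboxylate transporter that takes up butyrate, was at 590, 735 and 1337 in WT tumors, against 1713, 2366, 2555 and 2271 in untreated colon (log2 difference -1.45 ± 0.16, adjusted p = 6.17e-08). The sulfate transporter Slc26a2 was at 18, 22 and 51 in WT tumors, against 92, 141, 130 and 114 in untreated colon (log2 difference -2.20 ± 0.33, adjusted p = 1.15e-05). Slc9a3, a sodium-proton exchanger, went the other way, at 166, 304.5 and 377 in WT tumors, against 24, 164, 49 and 21 in untreated colon (log2 difference 2.55 ± 0.66, adjusted p = 0.0049), as did Slc12a2, a chloride importer of crypt cells, at 1960, 2655.5 and 3713 in WT tumors, against 1205, 1780, 1853 and 1708 in untreated colon (log2 difference 0.73 ± 0.23, adjusted p = 0.0187). Without untreated replicate 1 Slc12a2 no longer passed, and without untreated replicates 1 and 4 neither gene did, with a log2 difference of 1.56 for Slc9a3.

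The uncharacterised gene 2310079G19Rik had the largest fall, at 9, 12.5 and 29 in WT tumors, against 143, 484, 751 and 438 in untreated colon (log2 difference -4.72 ± 0.59, adjusted p = 7.08e-07). Cyp2f2, a cytochrome P450, was at 10, 12.5 and 47 in WT tumors, against 324, 229, 280 and 1312 in untreated colon (log2 difference -4.45 ± 0.69, adjusted p = 1.92e-05). The peptide transporter Slc15a1 was at 10, 24 and 49 in WT tumors, against 189, 394, 411 and 426 in untreated colon (log2 difference -3.72 ± 0.37, adjusted p = 1.48e-08). Akr1c14, an aldo-keto reductase, Abat, which breaks down GABA, and Sult1c2, a sulfotransferase, fell by 3.59, 3.53 and 3.34 on the log2 scale. Slc37a2, a sugar-phosphate exchanger, and Tppp, a tubulin-binding protein, fell by 3.58 and 3.44. Dpyd, the enzyme that starts pyrimidine breakdown, was at 19, 23.5 and 40 in WT tumors, against 139, 241, 256 and 332 in untreated colon (log2 difference -3.16 ± 0.20, adjusted p = 4.69e-13). These genes were named as large falls without overlap between groups, so their lack of overlap follows from that choice. Over all genes, 6.61% had every tumor array below every untreated array. Prkg2, a cGMP-dependent kinase of intestinal epithelium, was among the largest rises, at 55, 334 and 514 in WT tumors, against 10, 8, 9 and 12 in untreated colon (log2 difference 4.65 ± 0.36, adjusted p = 5.19e-11).

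Of 29 xenobiotic-metabolizing enzymes and transporters, 12 fell and 1 rose (median -0.88). Cyp3a13, a drug-oxidising P450, was at 54, 100 and 257 in WT tumors, against 384, 554, 670 and 532 in untreated colon (log2 difference -2.28 ± 0.36, adjusted p = 2.21e-05). Abcb1a, the P-glycoprotein efflux pump, was at 97, 190 and 758 in WT tumors, against 1012, 2062, 2225 and 1564 in untreated colon (log2 difference -2.90 ± 0.50, adjusted p = 6.78e-05). The sulfotransferase Sult1a1 and the monooxygenase Fmo5 fell by 2.88 and 1.35 on the log2 scale. The member that rose, Cyp2b10, was at 11, 14.5 and 69 in WT tumors, against 10, 8, 10 and 8 in untreated colon (log2 difference 0.95 ± 0.27, adjusted p = 0.00938), with the highest value on replicate 3. Without tumor replicate 3 its log2 difference was 0.59 and still passed, while without untreated replicates 1 and 4 its adjusted p was 0.0637. Fatty acid oxidation genes fell in 9 of 18 members with no rise (median -0.44), among them Acadm, a medium-chain acyl-CoA dehydrogenase, at 743, 826 and 973 in WT tumors, against 1131, 1736, 1782 and 1392 in untreated colon (log2 difference -0.81 ± 0.15, adjusted p = 0.000145). Acaa2, Cpt1a and Ppargc1b, a thiolase, the carnitine transferase and a coactivator of mitochondrial genes, fell by 0.97, 0.84 and 1.42. Of 24 respiratory chain subunits, 6 fell and 1 rose (median -0.19), and 3 fell without untreated replicate 4.

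Transcription factors of epithelial identity changed in both directions, with 7 falls and 4 rises among 21 (median -0.48). Without untreated replicates 1 and 4 there were 6 falls and 1 rise. Klf4, a factor of differentiated surface and goblet cells, was at 634, 739 and 1417 in WT tumors, against 2411, 2446, 2652 and 2226 in untreated colon (log2 difference -1.58 ± 0.21, adjusted p = 2.29e-06). Vdr, the vitamin D receptor, was at 130, 175.5 and 430 in WT tumors, against 683, 1224, 1347 and 935 in untreated colon (log2 difference -2.37 ± 0.43, adjusted p = 0.000126). Hnf4g, a nuclear receptor of enterocytes, fell by 1.13. All 6 tumor arrays were below all 4 untreated arrays for these 3 genes. Hes6, a Notch-pathway inhibitor of Hes1, was at 575, 1285 and 1743 in WT tumors, against 334, 434, 480 and 398 in untreated colon (log2 difference 1.59 ± 0.23, adjusted p = 7.77e-06). Cdx2, the intestinal homeobox factor, was at 42, 222.5 and 522 in WT tumors, against 17, 86, 37 and 19 in untreated colon (log2 difference 2.54 ± 0.64, adjusted p = 0.00371). Foxa3, a forkhead factor of secretory cells, was at 194, 341.5 and 426 in WT tumors, against 91, 194, 126 and 77 in untreated colon (log2 difference 1.41 ± 0.37, adjusted p = 0.00546). The calls of Cdx2 and Foxa3 were lost without untreated replicates 1 and 4. Of 17 posterior Hox genes, 4 fell and 2 rose (median -0.04), but 2 fell when any 1 untreated array or tumor replicate 1 was left out. Hoxb13, a marker of the distal colon, was at 509, 1625.5 and 2376 in WT tumors, against 3010, 3955, 4233 and 3434 in untreated colon (log2 difference -1.29 ± 0.31, adjusted p = 0.00258). Hoxa9, Hoxa10 and Hoxb8 had log2 differences of 0.97, 0.57 and -0.44 (adjusted p = 0.00384, 0.0174 and 0.0204), and without untreated replicates 1 and 4 none of these 3 passed. Without untreated replicate 4 alone, Hoxa10 and Hoxb8 were at 0.36 and -0.23 and did not pass. Of 18 claudins and tight junction genes, 1 rose and 3 fell, with a median of 0.01 that was -0.01 without normalization. Cldn4 was at 460, 994.5 and 1156 in WT tumors, against 288, 122, 124 and 274 in untreated colon (log2 difference 2.27 ± 0.29, adjusted p = 1.31e-06). Cldn8, a barrier claudin of the distal colon, was at 153, 306.5 and 802 in WT tumors, against 743, 849, 1106 and 1033 in untreated colon (log2 difference -1.51 ± 0.32, adjusted p = 0.00069), and the scaffold Tjp1 fell by 0.54. Cldn1 (log2 difference -1.78 ± 0.59, adjusted p = 0.0275) was at 107 and 70 on the squamous untreated replicates 1 and 4, and its adjusted p was 0.158 without replicate 1 and 0.112 without replicate 4.

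**Figure D4:**
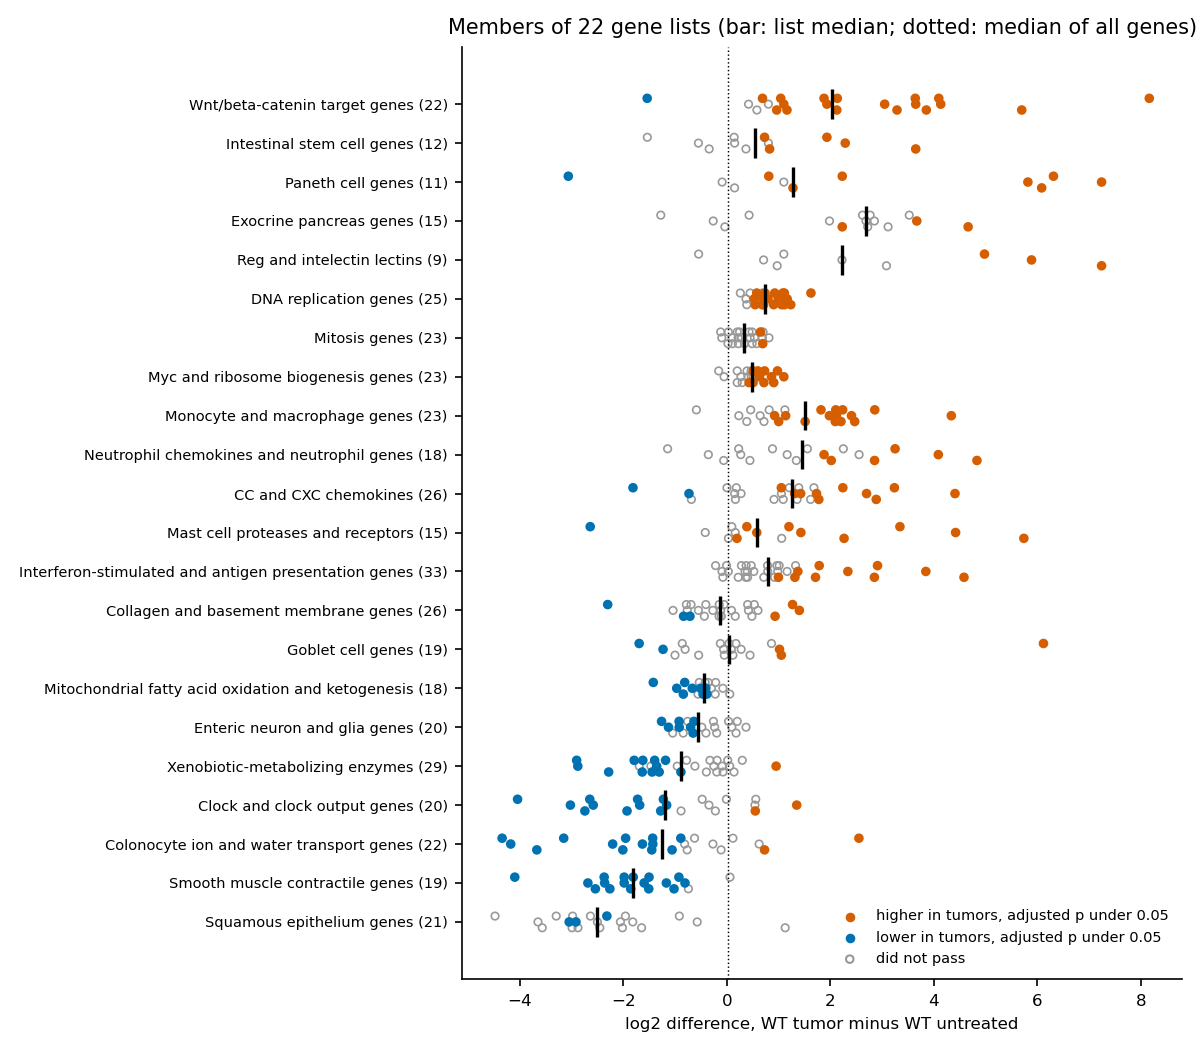
Log2 difference, WT tumor minus untreated WT, of every measured member of 22 gene lists (member number in parentheses); filled points passed the test, black bars are list medians and the dotted line is the median of all genes (0.02). Wnt targets (median 2.03) lie mostly to the right and smooth muscle (-1.81), colonocyte transport (-1.24) and clock genes (-1.19) to the left, while squamous genes have a median of -2.50 with 3 of 21 past the test.

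The circadian clock runs in most cells through a loop in which CLOCK and BMAL1 bind E-boxes of the Per and Cry genes and of output factors. Promoters of clock genes are shown because 11 of the 20 measured clock genes fell, with the E-box CACGTG in capitals on either strand (the motif is its own reverse complement). Tef (chr15:81802423-81802722, plus strand) had 1 match in this promoter and Ciart (chr3:95882179-95882478, minus strand) had 3.
Tef: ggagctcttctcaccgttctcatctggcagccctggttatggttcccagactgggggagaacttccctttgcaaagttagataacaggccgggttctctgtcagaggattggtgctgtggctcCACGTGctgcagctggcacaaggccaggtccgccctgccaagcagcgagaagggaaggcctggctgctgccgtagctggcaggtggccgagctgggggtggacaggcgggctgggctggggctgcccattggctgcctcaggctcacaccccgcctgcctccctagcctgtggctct
Ciart: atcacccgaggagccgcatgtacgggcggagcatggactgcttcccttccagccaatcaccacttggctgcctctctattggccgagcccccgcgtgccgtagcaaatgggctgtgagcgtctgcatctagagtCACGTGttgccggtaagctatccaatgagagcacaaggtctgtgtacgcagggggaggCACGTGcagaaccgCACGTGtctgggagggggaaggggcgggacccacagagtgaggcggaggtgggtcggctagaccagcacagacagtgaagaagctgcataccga
Of 17 clock genes with a promoter in the table, 5 held the E-box (29.4%): Tef, Ciart, Cry1, Per1 and Bhlhe41. It stood in a promoter of 8.09% of all genes and in 7.15% of all promoters. The promoters of Dbp in the table held no match, which says only that these letters are not in these windows.

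Clock and clock output genes were lower in WT tumors in 11 and higher in 2 of 20 measured members (median -1.19). Dbp, an output transcription factor with a strong daily rhythm, was at 12, 19.5 and 53 in WT tumors, against 190, 550, 447 and 426 in untreated colon (log2 difference -4.04 ± 0.36, adjusted p = 1.07e-09). Its relative Tef was at 44, 65.5 and 116 in WT tumors, against 368, 483, 505 and 460 in untreated colon (log2 difference -2.74 ± 0.25, adjusted p = 1.78e-09). Usp2, a rhythmic deubiquitinase, was at 18, 32 and 43 in WT tumors, against 175, 373, 366 and 174 in untreated colon (log2 difference -3.02 ± 0.32, adjusted p = 5.19e-08). On every tumor array these outputs were lower than on any untreated array. Per3, a repressor of the loop, was at 10, 15 and 35 in WT tumors, against 66, 120, 133 and 112 in untreated colon (log2 difference -2.58 ± 0.33, adjusted p = 9.6e-07). Per3 did not overlap either. Ciart and Per1, a repressor and a period gene named for their promoters and so chosen after their values were seen, fell by 2.64 and 1.22. Nfil3, which represses the sites that Dbp and Tef activate, rose, at 59, 77.5 and 84 in WT tumors, against 39, 25, 22 and 27 in untreated colon (log2 difference 1.35 ± 0.35, adjusted p = 0.00438), and so did the repressor Cry1 (log2 difference 0.55 ± 0.14, adjusted p = 0.00366), whose call was lost without untreated replicates 1 and 4. Arntl, which encodes BMAL1, was at 41, 56 and 113 in WT tumors, against 32, 49, 41 and 44 in untreated colon. Arntl did not pass (log2 difference 0.54 ± 0.25, adjusted p = 0.117). The labels give no time of day of sampling.

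Prostaglandin genes showed 6 rises and 4 falls among 20 (median 0.05). The importer Slco2a1 fell, at 58, 92.5 and 182 in WT tumors, against 464, 265, 419 and 298 in untreated colon (log2 difference -1.95 ± 0.24, adjusted p = 7.9e-07). Hpgd, the enzyme that inactivates prostaglandins, also fell, at 249, 374.5 and 639 in WT tumors, against 676, 1345, 1677 and 1359 in untreated colon (log2 difference -1.71 ± 0.29, adjusted p = 6.22e-05). Neither gene overlapped between groups. Ptger4, a prostaglandin E receptor, was at 341, 361 and 444 in WT tumors, against 146, 241, 235 and 226 in untreated colon (log2 difference 0.89 ± 0.14, adjusted p = 2.05e-05), while the receptor Ptger3 was at 10, 13 and 41 in WT tumors, against 45, 89, 150 and 158 in untreated colon (log2 difference -2.53 ± 0.36, adjusted p = 4.75e-06). Ptgs2, the inducible cyclooxygenase, was at 30, 100 and 204 in WT tumors, against 38, 36, 23 and 31 in untreated colon. Ptgs2 did not pass (log2 difference 1.32 ± 0.63, adjusted p = 0.135), nor did the synthase Ptges (log2 difference -0.11 ± 0.45, adjusted p = 0.9).

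Smooth muscle genes were lower in WT tumors: 17 of 19 measured members fell and none rose (median -1.81). Myh11, smooth muscle myosin, was at 271, 409.5 and 1419 in WT tumors, against 1991, 3357, 2735 and 3318 in untreated colon (log2 difference -2.54 ± 0.43, adjusted p = 5.28e-05). Pcp4, a calmodulin regulator, was at 28, 42 and 96 in WT tumors, against 783, 484, 938 and 1007 in untreated colon (log2 difference -4.09 ± 0.54, adjusted p = 1.76e-06). The intermediate filament protein Synm and the creatine kinase Ckm fell by 2.68 and 2.37, and Actg2, enteric actin, by 1.81. Actn1, a non-muscle actinin, was at 898, 1012 and 1076 in WT tumors, against 1057, 953, 859 and 990 in untreated colon. Actn1 did not pass (log2 difference 0.06 ± 0.16, adjusted p = 0.826), while another, dim probe set of the gene was lower (log2 difference -0.43 ± 0.15, adjusted p = 0.0479). On tumor replicate 6 the summed intensity of the list was 32834, against 13400 to 14948 on the other 5 tumors and 37532 to 47334 in untreated WT colon. Of 20 enteric neuron and glia genes, 7 fell and none rose (median -0.56), with 2 falls without untreated replicate 2 and 4 without untreated replicate 4. Ano1, a chloride channel of pacemaker cells, was at 760, 883 and 1315 in WT tumors, against 1430, 1912, 1815 and 1900 in untreated colon (log2 difference -0.92 ± 0.21, adjusted p = 0.00136), and the neuronal genes Nefm, Stmn2 and Nefl fell by 0.63, 1.26 and 0.92. The adjusted p of Nefl was 0.0851, 0.051 and 0.0591 without untreated replicate 2, 3 or 4, and Stmn2 no longer passed without untreated replicate 2. Among the markers set for neurons and glia, Elavl4 passed (log2 difference -0.70, adjusted p = 0.0185). Uchl1 and Sox10 did not (log2 differences -0.26 and -0.40, adjusted p = 0.596 and 0.0772).

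Of 25 stromal and fibroblast genes, 1 rose and 3 fell (median 0.08). Without tumor replicate 1 or 2 or untreated replicate 1 or 4, 2 fell. The fibroblast markers Dcn and Pdgfra did not pass (adjusted p = 0.905 and 0.37), nor did the endothelial markers Pecam1 and Cdh5 (adjusted p = 0.776 and 0.746). Thbs4, a thrombospondin of tendon and muscle, was at 170, 266 and 780 in WT tumors, against 1120, 1875, 1678 and 1697 in untreated colon (log2 difference -2.40 ± 0.34, adjusted p = 5.55e-06). Postn, periostin, fell by 1.32, with an adjusted p of 0.0721 without untreated replicates 1 and 4. Vim, vimentin, was at 2220, 2526.5 and 3359 in WT tumors, against 1370, 1810, 824 and 1310 in untreated colon (log2 difference 1.06 ± 0.32, adjusted p = 0.0142). The call of Vim was lost without untreated replicate 3 and without untreated replicates 1 and 4, and that of Cd34 (log2 difference -1.22 ± 0.45, adjusted p = 0.049) when any 1 of 8 arrays was left out, with an adjusted p of up to 0.161, without untreated replicate 2. Of 26 collagen and basement membrane genes, 3 rose and 3 fell (median -0.13). Leaving out 1 array gave 1 to 3 rises and 1 to 4 falls, with a median of -0.31 to -0.03. Col4a5, a basement membrane collagen, was at 17, 26 and 77 in WT tumors, against 189, 156, 85 and 197 in untreated colon (log2 difference -2.30 ± 0.36, adjusted p = 1.81e-05). Col4a6 fell by 0.71, a call lost without untreated replicate 4. The laminin Lama1 was at 19, 27 and 42 in WT tumors, against 10, 11, 11 and 12 in untreated colon (log2 difference 1.27 ± 0.32, adjusted p = 0.00419). Col18a1 (log2 difference 1.40 ± 0.50, adjusted p = 0.0401) lost its call when any 1 of 7 arrays was left out, with an adjusted p of up to 0.16, without untreated replicate 3. Col1a1, fibrillar collagen, was at 31, 66.5 and 109 in WT tumors, against 132, 65, 31 and 81 in untreated colon. Col1a1 did not pass (log2 difference -0.15 ± 0.55, adjusted p = 0.888). Squamous genes had a median of -2.50, but 3 of 21 fell and their level in untreated WT colon rests on replicates 1 and 4. Without replicate 1 the median was -0.79 and none fell, while 14 fell without replicate 2 and 15 without replicate 3. Without replicates 1 and 4 the median was 0.12. Trp63, the squamous transcription factor, was at 8, 9 and 10 in WT tumors, against 423, 8, 8 and 164 in untreated colon (log2 difference -2.31 ± 0.85, adjusted p = 0.0478), and without those arrays its log2 difference was 0.11. Its call was lost when any 1 of 8 arrays was left out.

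Among immune genes, those of monocytes and macrophages rose in most members. Of 23 monocyte and macrophage genes, 15 rose and none fell (median 1.51). Lyz2, the myeloid lysozyme, was at 3252, 4762 and 5716 in WT tumors, against 564, 953, 433 and 776 in untreated colon (log2 difference 2.86 ± 0.27, adjusted p = 3.15e-09), and the complement subunits C1qa and C1qb and the adaptor Tyrobp had log2 differences of 1.98, 2.21 and 2.41 (adjusted p = 0.000882, 0.00109 and 0.000908). Adgre1, which encodes F4/80, was at 49, 144.5 and 235 in WT tumors, against 56, 74, 35 and 64 in untreated colon. Adgre1 did not pass (log2 difference 1.12 ± 0.43, adjusted p = 0.0554). Mast cell genes rose in 9 and fell in 1 of 15 (median 0.58), with 6 rises without untreated replicates 1 and 4 and 6 without tumor replicates 2 and 6. Mcpt2, a mucosal mast cell protease, was at 310, 602.5 and 954 in WT tumors, against 12, 10, 11 and 7 in untreated colon (log2 difference 5.74 ± 0.36, adjusted p = 4.69e-13). Mcpt1 and the carboxypeptidase Cpa3 had log2 differences of 4.42 and 3.34 (adjusted p = 4.51e-08 and 5.8e-07). Kit, a receptor also set as a mast cell marker, did not pass (log2 difference 0.10 ± 0.29, adjusted p = 0.8575). Its intensity was 32 to 128 in WT tumors, against 37, 80, 55 and 75 in untreated colon. Mcpt2 was at 27 to 41 at day 15, below every tumor array. The serotonin transporter Slc6a4, which epithelium also makes, was the member that fell, at 10, 17.5 and 25 in WT tumors, against 66, 124, 150 and 138 in untreated colon (log2 difference -2.64 ± 0.36, adjusted p = 3.54e-06).

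Of 18 genes of neutrophils and of the chemokines that attract them, taken as 1 list, 6 rose and none fell (median 1.45). Without untreated replicate 2, 3 rose, and without untreated replicates 1 and 4 the median was 2.32, with 8 rises. S100a8, a calgranulin, was at 678, 1471 and 2567 in WT tumors, against 35, 10, 11 and 1101 in untreated colon (log2 difference 4.83 ± 1.21, adjusted p = 0.00367), with untreated replicate 4 inside the tumor range. S100a9, its partner, was at 1009, 2588 and 4767 in WT tumors, against 165, 25, 34 and 2426 in untreated colon (log2 difference 4.09 ± 1.15, adjusted p = 0.00926), and its adjusted p was 0.06 without untreated replicate 2. Without untreated replicates 1 and 4 its log2 difference was 6.28. The neutrophil attractant Cxcl1 was at 32, 131.5 and 179 in WT tumors, against 12, 8, 11 and 26 in untreated colon (log2 difference 2.85 ± 0.76, adjusted p = 0.00582). Cxcl2, of the same kind, was at 68, 254 and 600 in WT tumors, against 17, 12, 10 and 157 in untreated colon (log2 difference 3.25 ± 0.83, adjusted p = 0.00448). Among 26 CC and CXC chemokines, 10 rose and 2 fell (median 1.26). Cxcl16 was at 232, 263 and 345 in WT tumors, against 100, 75, 71 and 91 in untreated colon (log2 difference 1.73 ± 0.22, adjusted p = 9.6e-07). Cxcl13, which draws B cells into follicles, was at 899, 1284 and 1775 in WT tumors, against 23, 183, 17 and 161 in untreated colon (log2 difference 4.41 ± 0.83, adjusted p = 0.000222). Ccl9 and Cxcl14 had log2 differences of 2.70 and 2.24 (adjusted p = 8.82e-05 and 0.000351). Ccl28, an epithelial attractant of IgA plasma cells, fell, at 173, 257.5 and 656 in WT tumors, against 705, 1016, 1414 and 1012 in untreated colon (log2 difference -1.81 ± 0.39, adjusted p = 0.000909). Cx3cl1, the other to fall (log2 difference -0.73 ± 0.24, adjusted p = 0.0258), did not pass without tumor replicate 2, untreated replicate 2 or untreated replicate 3.

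Of 23 IL-1 and IL-6 family genes, 7 rose and 2 fell (median 0.48). The median was 0.27 without untreated replicate 2 and 0.83 without untreated replicates 1 and 4, where none fell. Il1b was at 86, 310 and 1068 in WT tumors, against 19, 13, 10 and 289 in untreated colon (log2 difference 3.28 ± 0.77, adjusted p = 0.00217), with untreated replicate 4 among the tumors. Socs3, a feedback inhibitor induced by STAT3, was at 82, 121 and 170 in WT tumors, against 14, 22, 17 and 25 in untreated colon (log2 difference 2.59 ± 0.45, adjusted p = 8.08e-05). Lrg1, an acute-phase glycoprotein, was at 342, 602.5 and 1288 in WT tumors, against 29, 39, 14 and 71 in untreated colon (log2 difference 4.29 ± 0.47, adjusted p = 6.91e-08). Of 21 matrix metalloproteinases and inhibitors, 8 rose and 1 fell (median 0.57). Mmp10, a stromelysin, was at 473, 880.5 and 1245 in WT tumors, against 19, 18, 19 and 15 in untreated colon (log2 difference 5.37 ± 0.73, adjusted p = 2.72e-06). Mmp12, the macrophage elastase, was at 117, 211 and 280 in WT tumors, against 22, 21, 14 and 11 in untreated colon (log2 difference 3.49 ± 0.54, adjusted p = 1.81e-05). Mmp13, a collagenase, was at 162, 252.5 and 680 in WT tumors, against 11, 20, 20 and 14 in untreated colon (log2 difference 4.08 ± 0.66, adjusted p = 3.35e-05). The groups did not overlap in any of these 3 genes. Mmp17 fell by 0.83. Of 18 complement genes, 10 rose and none fell (median 0.85), and 5 rose without untreated replicates 1 and 4. Cfi, the factor that cleaves C3b, was at 32, 170.5 and 302 in WT tumors, against 10, 10, 10 and 7 in untreated colon (log2 difference 3.78 ± 0.32, adjusted p = 4.15e-10). C2 was at 30, 59.5 and 83 in WT tumors, against 20, 21, 11 and 23 in untreated colon (log2 difference 1.53 ± 0.37, adjusted p = 0.00245).

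Lymphocyte lists rose in part. Of 16 B cell and follicle genes 4 rose (median 0.81). Ltb, lymphotoxin β, was at 75, 134.5 and 180 in WT tumors, against 13, 20, 13 and 27 in untreated colon (log2 difference 2.81 ± 0.50, adjusted p = 9.72e-05). Ms4a1, which encodes CD20, was at 40, 171.5 and 377 in WT tumors, against 9, 19, 11 and 18 in untreated colon (log2 difference 3.27 ± 0.89, adjusted p = 0.00726). Cd79b, a B cell receptor chain, had a log2 difference of 2.46 (adjusted p = 0.00192). Of 11 plasma cell genes 6 rose (median 0.53). Without untreated replicate 1 the median was 0.92, and without untreated replicates 1 and 4, 3 rose. Pou2af1 was at 76, 84 and 190 in WT tumors, against 14, 50, 13 and 14 in untreated colon (log2 difference 2.37 ± 0.52, adjusted p = 0.00113). Jchain, the antibody joining chain, was at 1902, 3213 and 4538 in WT tumors, against 405, 2589, 832 and 416 in untreated colon (log2 difference 2.06 ± 0.52, adjusted p = 0.00417). The plasma cell factor Xbp1 and Tnfrsf13b had log2 differences of 0.45 and 1.77 (adjusted p = 0.000795 and 0.00327). Without untreated replicates 1 and 4, Ms4a1, Jchain and Xbp1 did not pass. Of 23 T cell and cytotoxic genes 8 rose (median 0.39, and 0.25 without tumor replicate 6), and 4 rose without tumor replicates 2 and 6. Cd3d, a chain of the T cell receptor complex, was at 25, 34.5 and 68 in WT tumors, against 11, 11, 9 and 13 in untreated colon (log2 difference 1.73 ± 0.37, adjusted p = 0.00093). Cd3e, the other T cell marker, did not pass (log2 difference 0.41 ± 0.175, adjusted p = 0.0886). The granzymes Gzmb and Gzma had log2 differences of 1.61 and 1.34 (adjusted p = 0.00023 and 0.000849), and Tnfrsf18 of 0.79 (adjusted p = 0.00195).

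Interferon-stimulated and antigen presentation genes rose in 10 of 33 members with no fall (median 0.79). The count was 17 without tumor replicate 3, 6 without untreated replicate 3 and 6 without tumor replicates 2 and 6, where the median was 0.52. Ido1, which breaks down tryptophan, was at 113, 370.5 and 774 in WT tumors, against 26, 11, 7 and 9 in untreated colon (log2 difference 4.58 ± 0.71, adjusted p = 2.03e-05). Ubd, a ubiquitin-like protein, was at 121, 266.5 and 466 in WT tumors, against 29, 15, 17 and 10 in untreated colon (log2 difference 3.84 ± 0.57, adjusted p = 9.12e-06). The groups did not overlap in either gene. The GTPase Ifi47 was at 218, 662 and 1130 in WT tumors, against 250, 92, 37 and 59 in untreated colon (log2 difference 2.85 ± 0.46, adjusted p = 3.01e-05). Tgtp1, another GTPase, was at 136, 476.5 and 939 in WT tumors, against 192, 50, 22 and 40 in untreated colon (log2 difference 2.91 ± 0.61, adjusted p = 0.00071). Both overlapped through untreated replicate 1. The change between untreated colon and tumors was then set against the same change in IL-17RC KO mice, as a difference of differences. Over all genes 134 differed (0.784%), 122 (0.714%) with a more positive WT change and 12 (0.0702%) with a more negative one. In the interferon list 25 of 33 differed. All 33 had a negative difference in IL-17RC KO (median -1.83), while 29 had a positive one in WT (median 0.79, against 0.02 over all genes). Counts by sign over all genes were not made, and the list was chosen with earlier results of these data known. The per-array list median, relative to untreated WT, was 2.81 to 3.27 in untreated IL-17RC KO colon, and -0.29 to 0.63 in untreated WT colon. In tumors the list median was at 0.15 to 2.65 in IL-17RC KO tumors and -0.19 to 1.64 in WT tumors. Ido1 was at 112 to 1807 in IL-17RC KO tumors, against 1345, 1462, 1378 and 1739 in untreated IL-17RC KO colon, and its changes differed by 6.58 ± 1.01 (adjusted p = 0.000271).

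**Figure D5:**
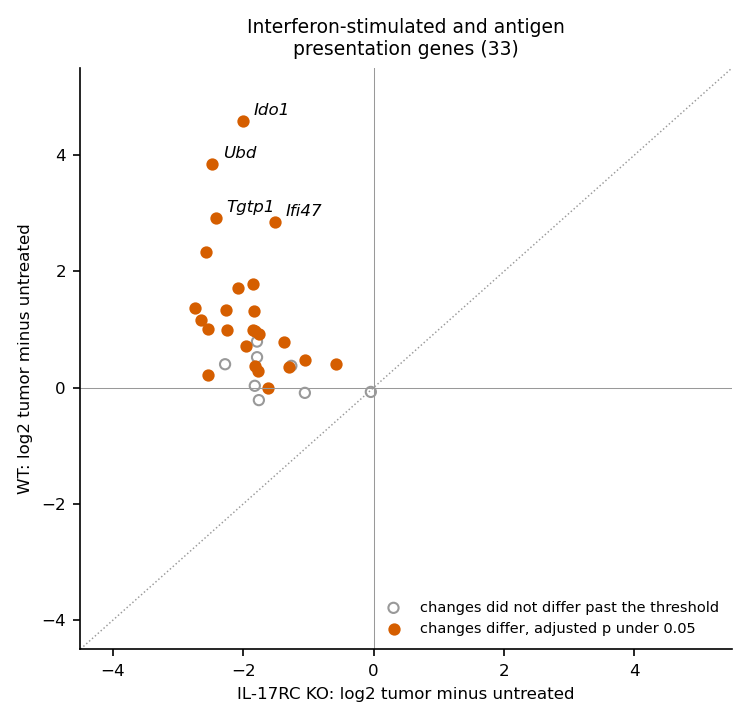
Log2 difference between tumors and untreated colon in WT mice (vertical) and in IL-17RC KO mice (horizontal) for 33 interferon-stimulated and antigen presentation genes; filled points are the 25 whose changes differ past the threshold, and the dotted line marks equal change. All points lie at negative values in IL-17RC KO, and Ido1 (4.58), Ubd (3.84), Tgtp1 (2.91) and Ifi47 (2.85) lie highest in WT.

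IL-17 pathway genes had 3 rises and 2 falls among 17 (17.65% and 11.8%, median 0.07), shares close to those of all genes. Without tumor replicate 1 or 3 or untreated replicate 1 there was 1 rise, and the median was 0.11 without tumor replicate 2. Il17rc, the receptor subunit deleted in the KO mice, was at 76, 104.5 and 223 in WT tumors, against 271, 330, 318 and 248 in untreated colon in WT mice (log2 difference -1.36 ± 0.52, adjusted p = 0.057). Every tumor array lay below every untreated array, but the gene did not pass. It passed under 6 of 25 alternatives, among them without tumor replicate 6. The others kept that array: pseudocount 16, dim genes left out, array weights, only the groups compared, and the replicate block. Il17re, the receptor for IL-17C, fell, at 46, 64 and 82 in WT tumors, against 170, 145, 152 and 215 in untreated colon (log2 difference -1.43 ± 0.21, adjusted p = 8.25e-06), and so did Traf3ip2, the adaptor Act1, at 127, 142 and 144 in WT tumors, against 183, 191, 212 and 180 in untreated colon (log2 difference -0.47 ± 0.11, adjusted p = 0.00149). Il23a, which supports IL-17-producing cells, was at 12, 18 and 33 in WT tumors, against 8, 8, 9 and 9 in untreated colon (log2 difference 1.05 ± 0.18, adjusted p = 6.99e-05), a low range in which 3 tumor arrays were at 12 or 13. Il17rd (log2 difference 0.78 ± 0.26, adjusted p = 0.0287) lost its call without 5 single arrays, with an adjusted p of up to 0.14, without untreated replicate 1. Il17ra was at 67, 78.5 and 87 in WT tumors, against 70, 71, 72 and 91 in untreated colon (log2 difference 0.02 ± 0.24, adjusted p = 0.966). Il17a was at 10, 11 and 14 in WT tumors, against 12, 12, 9 and 11 in untreated colon (log2 difference 0.05 ± 0.14, adjusted p = 0.836). Neither passed.

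The remaining 13 lists examined, among them gastric, enteroendocrine, p53, glycolysis and Notch genes, had list medians between -0.34 and 0.43. Of their 199 list entries 20 rose and 22 fell, where 12.5% of all genes rose and 10.1% fell. The pooled counts hide differences between these lists. Regenerative epithelium and EGF family genes had 6 rises and no fall among 18, and metallothionein and zinc transport genes 4 rises and 2 falls among 8. Calcium and vitamin D genes had 3 falls and no rise among 10.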

How the data were processed

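RNA of minced mouse colon was hybridised, per the labels, to Affymetrix HT MG-430 PM arrays after biotin labelling. The authors deposited whole-number intensity values per probe set, from 4 to 14185; their summarisation and normalization were not given in the sources used here. Array medians were 14 to 15 on the 10 arrays compared. Of 45037 probe sets, 28898 had 1 gene symbol, 551 several and 15588 none in the platform annotation, and for each of 17097 genes the brightest probe set, by its mean across the 36 arrays, was kept. Of these genes 36% had a mean intensity under 16, where differences are compressed. The number of arrays limits the precision.

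Values were transformed as log2(intensity + 1), quantile normalized and fitted with limma 3.58.1 (R 4.3.3) over 8 groups and all 36 arrays, with an intensity trend in eBayes. P-values were adjusted by Benjamini-Hochberg over 17097 genes, with a threshold of 0.05. Data were simulated with 100 genes changed at each size and all other genes unchanged. The comparison of tumors with untreated colon recovered 81% of changes of 1 log2 unit and 98% of changes of 2. Of 185 calls, 3.24% were false. The simulated noise was normal and independent between genes and arrays, with 1 spread per gene and no array that stood apart. The measured arrays differ from this, so these rates need not hold for them. No 2 arrays held identical values. Same-numbered tumor and untreated arrays had residual correlations of 0.00214 to 0.0926, and same-numbered tumor and WT day 15 arrays of -0.163 to 0.204. These were not set against correlations of differently numbered arrays, so they cannot show whether a number means a shared mouse or batch.

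Alternatives left out 1 array at a time or the arrays that stood apart, and changed the pseudocount, normalization, dim-gene filter, array weights, arrays fitted and blocks. The comparison and the gene lists were chosen with earlier results of these data known. The lists overlap: 41 of their 936 measured genes are in more than 1 list, so some rises and falls are counted again. Genes named are the 15 largest rises and 15 largest falls without overlap between groups, up to 4 members past the threshold with the smallest p and up to 2 others from each list described, and Il17rc. For the largest rises and falls, lack of overlap was thus a condition of being named and not a separate result. Cell type markers were also set, and not all of them are named. Those given only as markers, among them Epcam, Adipoq, Car1, Krt20, Kit and Cd3e, were not run through the alternatives. They are left out of the counts of named genes. Of the genes named, 74 have several probe sets. Of the 103 other probe sets, 56 passed in the same direction, 1 in the opposite and 46 did not pass.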

Additional observations from a re-analysis of the deposited data

Results flagged for a closer look

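In 374 groups of arrays tested for 1 array far from the rest, 41 were found, where chance gives about 5%. Of these, 25 were WT tumor replicate 6. Its intensity was far below the other tumors for Mmp7 (828), Defa21 (18), Wif1 (58), Prox1 (30), Sp5 (33), Lgr5 (71), Tnfrsf19 (29), Dkk2 (33), Wnt6 (9), Hes6 (575) and Cldn4 (460). It was far above them for Il17rc (223), Slc37a2 (75), Tppp (48), Sult1c2 (105), Slc5a8 (567), Muc3 (5151), Slc26a2 (51), Ppargc1b (324), Klf4 (1417), Ckm (33), Synm (750), Myh11 (1419), Actg2 (3220) and Cd34 (120). On other tumors, replicate 4 was high for Cdk1 (902), Ano1 (1315) and Krt5 (46), replicate 3 for Cyp2b10 (69) and replicate 2 for Tnfrsf18 (37).

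Among untreated WT arrays, replicate 1 was high for Wif1 (10), Olfm4 (1907), Nfil3 (39) and Avil (486), and low for Slc15a1 (189), Ciart (40), Ptger4 (146) and Ano1 (1430). Replicate 4 was low for Ascl2 (37), replicate 3 low for C2 (11) and replicate 2 high for Pou2af1 (50).

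For 11 named genes the change between untreated colon and tumors differed between WT and IL-17RC KO mice by limma's test of the difference. On the log2 scale the WT change exceeded the IL-17RC KO change by 6.58 for Ido1, 6.32 for Ubd, 5.33 for Tgtp1, 4.37 for Ifi47, 4.34 for Retnlb, 3.45 for C2, 2.80 for Gzma, 2.67 for Lrg1 and 2.03 for Gzmb. It was -1.52 for Dpyd and -2.20 for Ptger3. The differences of Lrg1, Ptger3, Gzmb and Retnlb did not pass under some alternatives, Lrg1 for example with an adjusted p of 0.129 without untreated WT replicate 3 and Ptger3 with 0.0822 without untreated WT replicate 4.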

How the results depend on the processing

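The count of 3878 genes that differed between WT tumors and untreated WT colon stayed within 1.5 times under all 25 alternatives, from 2733 with the replicate block to 5487 with array weights, and from 3122 to 4123 when leaving out 1 array. Of 187 genes named, 166 passed; 129 of them passed under every alternative and 37 lost the call under at least 1. Bop1, Il1b and Traf3ip2 lost it under the replicate block and under no other alternative, with an adjusted p of 0.0523 to 0.0806. The count against WT day 15 was 1481 with the replicate block and 2370 to 3843 when leaving out 1 array, against 3414. The count of genotype differences was 337 with array weights, 89 without tumor replicates 2 and 6 (chosen after seeing the data) and 103 to 167 when leaving out 1 array, against 134. The cause of these shifts was not tested.

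Of 39 list medians, 31 kept their sign. Without untreated replicates 1 and 4 the medians turned to 0.124 for squamous, 0.114 for collagen, -0.0378 for BMP, -0.0274 for goblet and -0.0548 for claudin genes, and Trp63 to 0.1149 and Hoxb8 to 0.08024. Without tumor replicates 2 and 6 they were -0.0369 for goblet, -0.00959 for claudin, -0.0651 for prostaglandin and -0.059 for stromal genes. With the replicate block they were -0.0335 for BMP, -0.0789 for goblet and -0.0073 for prostaglandin genes. With array weights they were -0.025 for BMP and -0.0232 for claudins, with the title code number as a block -0.0189 and -0.0318, and without normalization -0.0124 for claudins. Leaving out 1 array gave -0.0429 to 0.164 for BMP, -0.0655 to 0.168 for goblet, -0.047 to 0.0275 for claudin, -0.0286 to 0.132 for prostaglandin, -0.0781 to 0.112 for stromal and -0.114 to 0.00773 for posterior Hox genes. Low signal limits genes near background, and 44 of the named genes had a mean intensity under 16 in at least 1 group.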
